A study of Mus musculus with 4 samples.

Results

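The cytosolic ribosomal protein genes encode the proteins of the large (60S) and small (40S) subunit of the ribosome that translates nuclear messages. Members were protein-coding genes whose mouse symbol begins with Rpl or Rps and a number, the P-stalk genes Rplp0, Rplp1 and Rplp2, and Rpsa. This gave 78 of the 55401 genes in the counts, 46 of the large and 32 of the small subunit, each with counts in at least 3 of the 4 libraries. Left out were 10 S6 kinase genes, 7 genes named as ribosomal protein-like, 6 pseudogene names and Rps19bp1, whose product binds a ribosomal protein but is none. Rps27rt, an intronless copy of Rps27, stayed in.

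RNA came from E18.5 fetal oocytes, called primordial germ cells in the labels, whose ICR mothers had eaten normal chow (ND) or food rich in fat (HFD) for 4 months before mating with males kept on ND. The cells were sorted by the surface marker SSEA-1, cells of several fetuses were pooled per sample, and poly(A) RNA was amplified by the SMART-Seq2 protocol, which works on very few cells. There were 2 ND and 2 HFD libraries, with no genetic change in any group. The sources used here do not say whether the replicates came from separate mothers, so p-values measure only the spread between these samples. In such bulk samples, fewer cells and less RNA per cell cannot be told apart.

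A ribosome holds 1 copy of most of its proteins, and the genes for them are scattered over many chromosomes. Their messages are among the most abundant in growing cells. Many begin with a C followed by a run of C and T, the 5′ terminal oligopyrimidine (TOP) tract, through which mTOR signalling and the protein Larp1 adjust how many of them are translated. Oocytes build up ribosomes during growth, and E18.5 oocytes are at the end of fetal life, before that growth.

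The starts of these genes are shown because the tract is a known feature of many of them and was not used to choose the members. RefSeq start windows on GRCm38.p6 were held for 58 of the 78 members. A run of at least 5 C or T from the annotated start was present in 17 of them (29.3%), against 5.28% of 27025 genes in the same table. In each line below, 20 bases before the start are followed by the first 10 transcribed bases, all in lower case except the C and T run from the start, which is in capitals. Shown are 6 members with such a run whose values are described further on, and Rpl4 and Rpl5, the most abundant members, as examples of the larger number without one, so the lines do not show how frequent the run is. Rpl35 (chr2:39005122-39005151, minus strand) and Rps10 (chr17:27635235-27635264, minus) have a run that fills all 10 bases, and Rps6 (chr4:86857358-86857387, minus), Rps24 (chr14:24490658-24490687, plus), Rps21 (chr2:180257359-180257388, plus) and Rplp2 (chr7:141447631-141447660, plus) have shorter ones. Rps24 and Rps21 each have another annotated start, not shown, without a run of that length. Rpl4 (chr9:64173367-64173396, plus) and Rpl5 (chr5:107900508-107900537, plus) have none at the annotated start.
Rpl35: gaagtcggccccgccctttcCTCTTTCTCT
Rps10: acgctgcgccgcgcacgcccCTTCCTTTCC
Rps6: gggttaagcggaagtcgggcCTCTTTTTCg
Rps24: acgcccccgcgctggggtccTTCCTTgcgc
Rps21: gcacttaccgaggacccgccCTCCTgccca
Rplp2: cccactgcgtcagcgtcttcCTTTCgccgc
Rpl4: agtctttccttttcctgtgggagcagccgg
Rpl5: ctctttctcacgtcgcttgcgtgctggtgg

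Short words were also counted on both strands of the 300-base window from 250 bases before to 50 bases after the start. CTTTCC, which can lie within a C and T run, was found in 51.7% of the 58 members and 29.3% of all genes. CCGGAAGT, a word bound by ETS factors, was found in 19.0% and 4.31%. TATAAA, the TATA box word, was found in 10.3% and 15.7%. These are matches of letters and not measured sites.

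Values below are given in the order ND replicate 1, ND replicate 2, HFD replicate 1 and HFD replicate 2, and CPM are counts scaled to a common library total. Library totals were 8223255, 7815015, 6456825 and 5723605 counts, so that 3 counts correspond to 0.365 to 0.524 CPM. A gene was called above background when its counts per kilobase of exon exceeded the 99th percentile of 1135 olfactory receptor genes in that library (7.44 to 12.5 counts per kilobase) and its counts exceeded 3. Germ cell markers were present but uneven. The 10 genes summed to 2128, 3868, 3220 and 4870 CPM, between 6 and 10 of them were above background, and their levels went different ways. Dazl made up most of both ND sums and had 1733, 3770, 453 and 8.56 CPM. The sum of HFD replicate 2 rested mainly on Tex15 (3356 CPM) and Sycp1 (1394 CPM), so the sums do not rank the libraries by germ cell content. Ddx4 had 49, 97, 5 and 14 counts and Sycp1 had 36, 48, 9038 and 7978, and 6 of the 10 were fitted higher in HFD. Stroma markers (8 genes) summed to 2842, 67.4, 2220 and 7674 CPM and pregranulosa markers (8 genes) to 26.9, 404, 17.0 and 1154 CPM. Both sums were highest in HFD replicate 2. There the stroma sum rested on Col3a1 (2968 CPM), Col1a1 (2741), Postn (1272) and Nr2f2 (639). Other stroma markers differed, with Dcn and Lum highest in ND replicate 1 (323 and 598 CPM) and Col1a2 in HFD replicate 1 (650 CPM). The higher pregranulosa sums rested on single genes, Amhr2 with 1113 CPM in HFD replicate 2 and Fst with 383 CPM in ND replicate 2. Foxl2, Kitl, Irx3 and Krt19 stayed under 6 CPM in every library. Wnt4 and Lgr5 were also low, with their highest values, 10.3 and 15.5 CPM, in HFD replicate 2. Blood markers (6 genes) summed to 1973 CPM in ND replicate 1 and to between 1.41 and 10.8 in the others, with Hba-a2 at 1 count there and 0 elsewhere. Endothelium markers (5 genes) summed to 18.8, 68.6, 698 and 28.1 CPM and macrophage markers (6 genes) to between 5.12 and 26.03 CPM. The part of these other cell types in the results was not tested.

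Ribosomal protein genes were detected almost completely. Above background were 78, 78, 77 and 72 of the 78 members, against 24.9%, 22.1%, 13.3% and 15.2% of all protein-coding genes. In all 4 libraries 72 members (92.3%) were above background, while 3.36% of protein-coding genes were. Together the members took 6.68%, 9.43%, 6.93% and 2.81% of all counts. The level of the median member was 759, 642, 615 and 55.0 CPM, so HFD replicate 2 lay far below both ND libraries and also below the other HFD library. Relative to the background limit, the median member stood 329, 301, 243 and 12.1 times higher. Members with under 100 counts numbered 7, 5, 5 and 28.

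**Figure D1:**
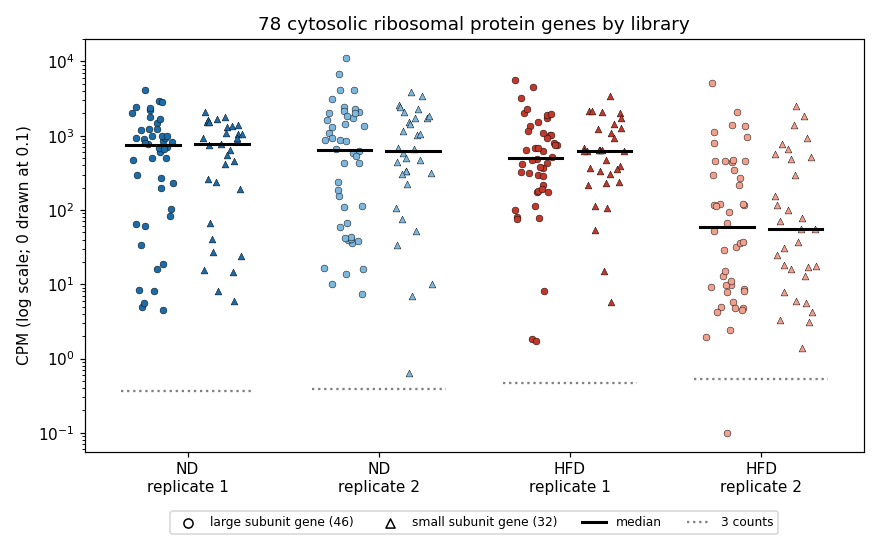
Level of each of the 78 cytosolic ribosomal protein genes in each library, in CPM on a log scale. Circles are the 46 large and triangles the 32 small subunit genes, black bars are medians and dotted lines 3 counts, and the points of HFD replicate 2 sit lowest, with medians of 59.6 CPM (large) and 55.0 CPM (small).

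The most abundant member was Rpl4, which lines part of the tunnel through which the new protein leaves the ribosome, in both ND libraries and in HFD replicate 2. It had 33810, 88020, 12355 and 29209 counts, and in HFD replicate 2 it alone made up 18.1% of the members' counts. In HFD replicate 1 the most abundant was Rpl5 with 36303 counts, a protein that joins the 5S rRNA and that, outside the ribosome, binds the p53 regulator Mdm2. The smallest number of members that held 50% of the members' counts was 16, 12, 13 and 6. In the list of each library's 50 most abundant genes there were 8, 6, 14 and 1 members.

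Levels of different genes can only be compared per length of message, so CPM per kilobase of exon were used for the order of members. In the large subunit the highest mean belonged to Rpl36, with 4354, 5901, 2992 and 249 CPM per kilobase. Rpl4 followed with 2049, 5612, 953 and 2543. Rplp1, one of the acidic proteins of the stalk that recruits elongation factors, had 123, 4372, 1367 and 236. Rpl41, which encodes the smallest ribosomal protein, had 840, 14.1, 3907 and 832. The ranges over libraries of neighbours in this order overlapped. The order depended on the length used, since per kilobase of the shortest principal transcript (a length added once the counts had been examined) the mean was highest for Rpl41 (3737), then Rpl4 (3640) and Rpl36 (3374), and Rplp1 (1524) ranked 10. ND replicate 2 was the highest library for Rpl36, Rpl4 and Rplp1 and the lowest for Rpl41.

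Among the leading genes of the small subunit, Rps21 had 1701, 2137, 848 and 700 CPM per kilobase. Rps29, a zinc-binding protein, had 800, 3026, 896 and 25.7. Rps15 had 106, 3878, 575 and 20.2. Rps21 kept within a narrow range, while Rps29 and Rps15 had their lowest values in HFD replicate 2, and the ranges over libraries again overlapped.

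Individual members differed widely between libraries, replicates of a diet included. Among the 77 members with over 3 counts in every library, the highest CPM was a median 46.2-fold above the lowest, 62 spanned at least 10-fold and 24 more than 100-fold. Only 5 members stayed within 4-fold, namely Rps19, Rps21, Rpl30, Rpsa and Rps4x. Rps19, the gene most often mutated in Diamond-Blackfan anaemia, was the steadiest with 1044, 1016, 623 and 483 CPM. Rpsa, also known as the laminin receptor precursor, had 1769, 477, 644 and 940 CPM. A wide range was not particular to the family, since other protein-coding genes above background in all 4 libraries (664 genes) had a median range of 44.4-fold, against 41.1-fold for the 72 members.

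**Figure D2:**
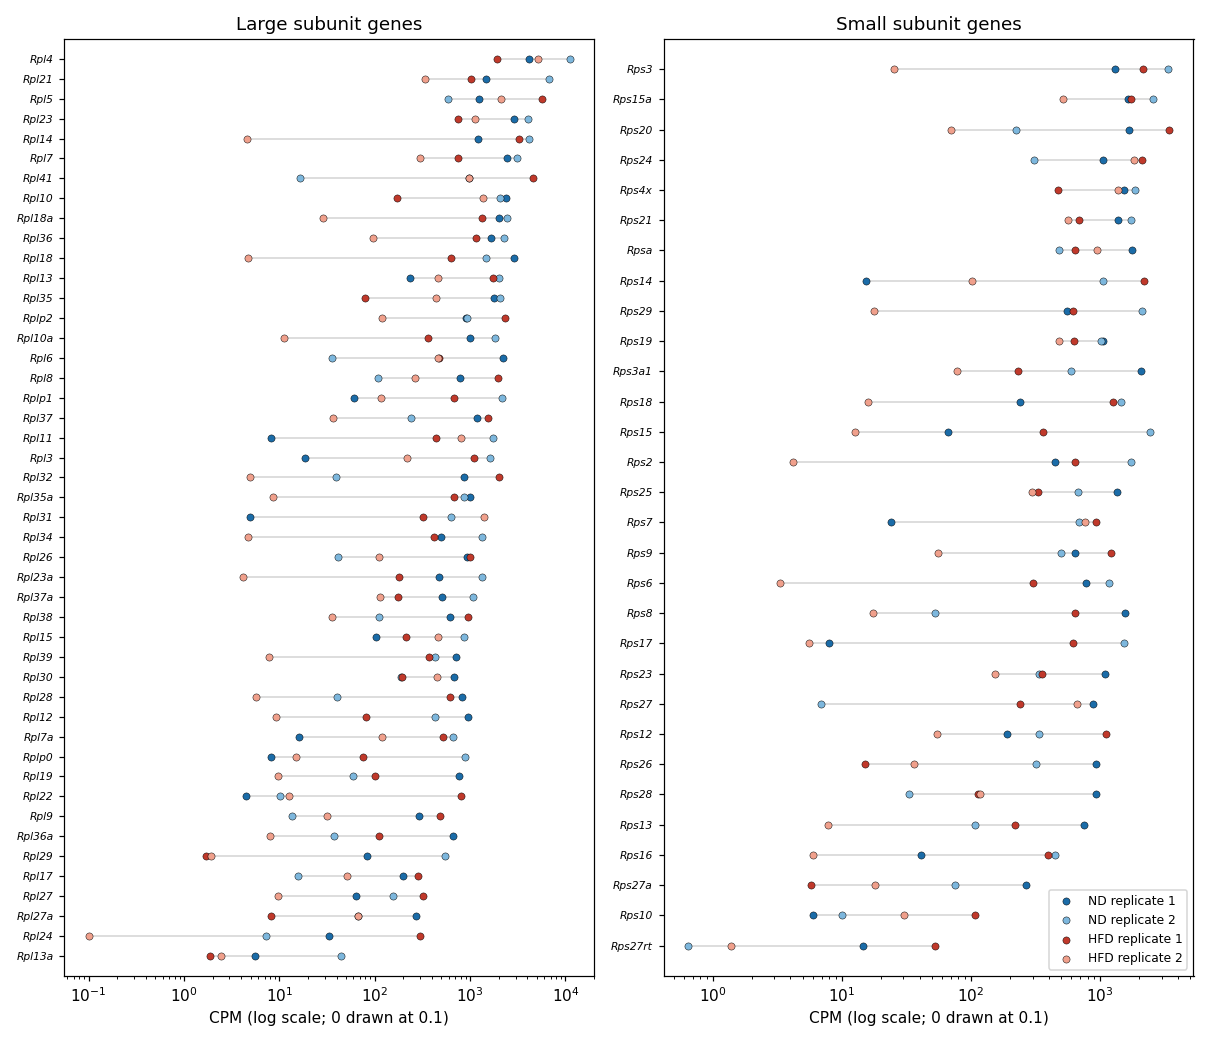
CPM of 76 members in the 4 libraries on a log scale, large subunit genes on the left and small on the right, ordered by mean CPM, with grey lines from the lowest to the highest library. Lines longer than 10-fold are the rule, and the pale red point of HFD replicate 2 is the lowest of the 4 for most genes (42 of all 78 members).

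The 2 ND libraries differed from each other by a median 1.98 on the log2 CPM scale, and 39 members by more than 4-fold. The corresponding medians were 1.83 between ND replicate 1 and HFD replicate 1 and 1.96 between ND replicate 2 and HFD replicate 1. Distances to HFD replicate 2 were larger, with 3.05 from ND replicate 1, 2.83 from ND replicate 2 and 3.0 from HFD replicate 1. Median differences within a diet (1.98 and 3.0) lay in the same range as those between diets (1.83 to 3.05). HFD replicate 2 was lower than ND replicate 1 in 62, than ND replicate 2 in 59 and than HFD replicate 1 in 60 of the 78 members. Over 4071 protein-coding genes with a mean of at least 10 CPM, the ND libraries differed by a median 1.54. More than 4-fold apart were 44.8% of these genes, beside 50% of the members. Here HFD replicate 1 was the distant library (3.88 and 2.95 from the ND libraries, 2.88 from HFD replicate 2). HFD replicate 2 lay 2.02 and 1.45 from ND replicates 1 and 2.

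The library with the lowest level of a gene was not spread alike over the family and over all genes, which is given here as a description. HFD replicate 2 was the lowest library for 42 members (22 large, 20 small), while it was the lowest for 10.5% of the 19335 genes tested. HFD replicate 1, the lowest for 47.3% of all genes tested, was lowest for 10 members. The contrast was smaller among genes above background in every library, where 38 of 72 members (52.8%) and 120 of 664 other protein-coding genes (18.1%) were lowest in HFD replicate 2. In these genes HFD replicate 2 lay a median 1.99 below the mean of the other libraries on the log2 scale for members and 0.37 below for the others.

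HFD replicate 2 had the lowest summed counts in both subunits. Large subunit genes summed to 42087, 60902, 42061 and 17335 CPM and small subunit genes to 24732, 33378, 27264 and 10789 CPM. For all members the sums were 66819, 94280, 69324 and 28125 CPM, so that HFD replicate 1 lay between the ND libraries and HFD replicate 2 below them. In the large subunit alone HFD replicate 1 was just under the lower ND library, and in the small subunit it lay between the ND libraries. The mean log2 sum was -0.85 in HFD relative to ND (exact permutation test, two-sided, p = 0.667). For the large subunit the difference was -0.91 (exact permutation test, p = 0.33, the smallest p that 2 against 2 libraries can give) and for the small subunit -0.74 (exact permutation test, p = 0.667). Without HFD replicate 2 the difference for all members was -0.20.

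Large subunit genes made up 63.0%, 64.6%, 60.7% and 61.6% of the members' counts, 63.8% on average in ND and 61.2% in HFD. The difference of -2.64 percentage points had an exact permutation p of 0.33, again the smallest possible. With counts per kilobase of exon the shares were 64.9%, 61.3%, 66.4% and 62.1% and the difference was 1.15 percentage points in the other direction (exact permutation p = 0.667). Without the most abundant member of each library the shares were 60.6%, 59.8%, 57.2% and 53.1%, a difference of -5.01 percentage points (exact permutation p = 0.33). Over the members without a pseudogene named after them they were 62.8%, 66.6%, 55.6% and 71.8%.

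**Figure D3:**
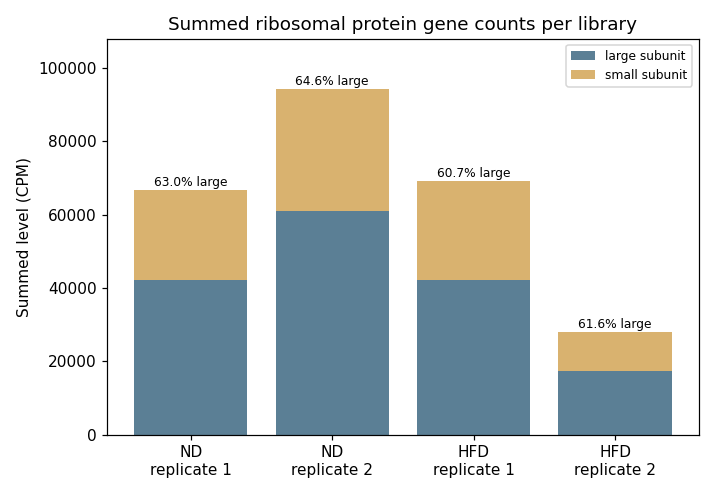
Summed level of the large and small subunit genes in each library, in CPM, stacked in bars that start at 0, with the share of the large subunit above each bar. The bar of HFD replicate 2 is the lowest, and the large subunit share runs from 60.7% to 64.6%.

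The diets were compared gene by gene with edgeR's quasi-likelihood test on all 19335 genes that passed the filter on low counts, the 78 members among them. No member was called at an adjusted p under 0.05 and a fold change over 1.5, and none of the genes tested was (0% in each direction). The smallest adjusted p of a member was 0.406. At an unadjusted p under 0.05 there were 4 members lower in HFD (Rpl29, Rpl13a, Rps27a and Rps26), which is 5.13% of the members beside 6.41% of all genes tested, and 0 higher, beside 4.82%. DESeq2 called 8 members, 2 higher (Rpl22 and Rps10) beside 24.3% of all genes with an adjusted p, and 6 lower (Rpl29, Rps26, Rps27a, Rpl35, Rpl13a and Rpl12) beside 21% of them. The share of members called by DESeq2 was thus below that of all genes in both directions.

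The fitted fold changes leaned to lower values in HFD. Fitted changes were below 0 in 50 members and above 0 in 28, or 64.1% below beside 48.5% of all genes tested. The median fitted log2 fold change was -0.78 over the members, -1.02 for the large and -0.72 for the small subunit, beside 0.03 for all genes. The median standard error of a single member was 2.28. Without HFD replicate 2 the median over members was -0.25, with 36 above and 42 below 0, beside -0.18 for all genes, and without HFD replicate 1 it was -3.95 with 8 above and 70 below 0. The sign of the median remained negative with RLE size factors (-0.77) and with library size alone (-1.11). Library size alone moved the median of all genes by 0.18, and relative to that median the members lay at -1.32, beside -0.82 with TMM.

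**Figure D4:**
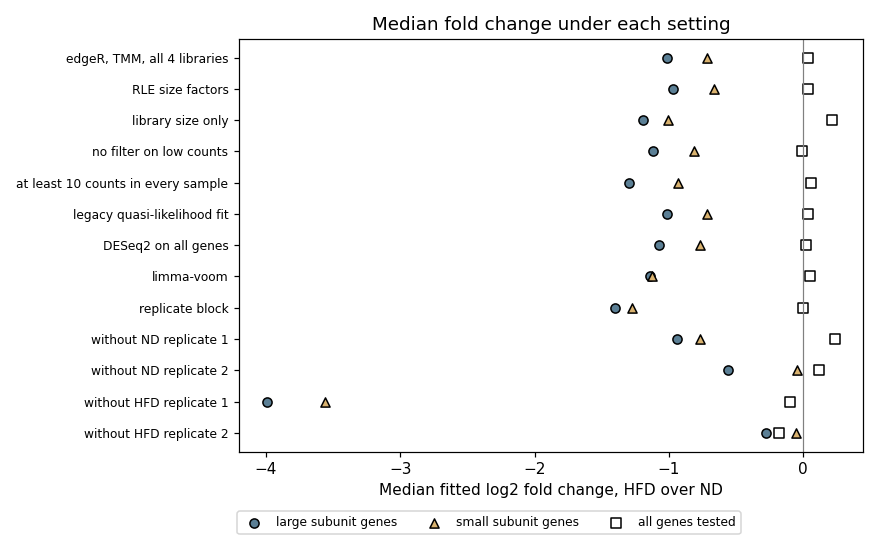
Median fitted log2 fold change (HFD over ND) of the large subunit genes, the small subunit genes and all genes tested, under each setting of the fit. Circles and triangles lie left of 0 in every setting, near -4 without HFD replicate 1 and close to 0 without HFD replicate 2.

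Both HFD values lay below both ND values in 25 members (17 large, 8 small), or 32.1%, beside 13.4% of all genes tested. Both lay above in 5 members, beside 13.9%. With TMM-normalised CPM the numbers were 22 below, beside 17.8%, and 3 above, beside 16.1%. In each direction the 5 members with the smallest unadjusted p are described next.

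Rpl29, a small basic protein also known to bind heparin, had the smallest p. Its coding sequence has 26 near-identical pseudogene copies, so its values are among the uncertain ones described further on. Rpl29 had 683, 4232, 11 and 11 counts, so both HFD libraries were near the background limit, and in HFD replicate 2 it did not exceed it. The fitted log2 fold change was -7.45 ± 2.05 (SE, edgeR adjusted p = 0.406). Rpl13a, a component of the large subunit that also takes part in the GAIT complex of translational silencing, had 46, 343, 12 and 14 counts and was above background in the ND libraries only. Its fitted log2 fold change was -3.59 ± 1.21 (edgeR adjusted p = 0.406). These were the 2 large subunit genes with an unadjusted p under 0.05, and both were weakly expressed in HFD.

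Rps27a encodes ubiquitin fused to a small subunit protein. It had 2179, 593, 37 and 103 counts, and all 4 libraries were above background, with the HFD libraries lower. The fitted log2 fold change was -4.07 ± 1.46 (edgeR adjusted p = 0.406). Rps26, a small subunit protein near the channel where the message leaves the ribosome, had 7676, 2488, 97 and 209 counts. Its log2 fold change was -4.77 ± 1.87 (edgeR adjusted p = 0.406). For both genes the lowest ND library was several-fold above the highest HFD library.

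Rpl35, which sits near the exit of the protein tunnel, was more abundant and more even in ND, with 14614, 16267, 506 and 2524 counts. Its level was 1929 ± 215 CPM in ND and 260 ± 256 CPM in HFD (SD, n = 2 each), and its log2 fold change of -3.28 ± 2.02 did not pass (edgeR adjusted p = 0.525). Its start carries the longest run of C and T among the lines shown above. Rpl12, part of the base of the stalk and chosen here after its values were seen because DESeq2 called it, had 7771, 3382, 526 and 53 counts.

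Of the 5 members above in HFD, the highest values belonged to Rpl5 and Rps24, and the smallest p to Rps10. Rps10, a small subunit protein mutated in Diamond-Blackfan anaemia, had 49, 79, 689 and 174 counts, and its log2 fold change was 3.38 ± 1.43 (edgeR adjusted p = 0.406). Rpl22, which has a close paralog in Rpl22l1, had 37, 80, 5201 and 73 counts, so HFD replicate 1 stood alone and HFD replicate 2 overlapped ND under TMM. Its log2 fold change was 6.25 ± 2.79 (edgeR adjusted p = 0.406), and without HFD replicate 1 it was 0.04.

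Rpl5 had 10226, 4549, 36303 and 12114 counts (log2 fold change 2.37 ± 2.18, edgeR adjusted p = 0.712). Rps24 had 8711, 2411, 13676 and 10392 counts (1.64 ± 2.0, edgeR adjusted p = 0.806). Both were abundant in every library, with the lower HFD value above the higher ND value in CPM (2117 over 1244 for Rpl5 and 1816 over 1059 for Rps24). Rps7 had 197, 5399, 6014 and 4404 counts (1.29 ± 2.20, edgeR adjusted p = 0.880), with ND replicate 1 low and the other 3 alike, and the groups overlapped under TMM.

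The stalk proteins Rplp0, Rplp1 and Rplp2, which together form the site that elongation factors contact, did not move together. Rplp0 had 67, 6842, 489 and 86 counts, high in ND replicate 2 only. Rplp1 had 503, 17048, 4404 and 673 counts, also highest in ND replicate 2. Rplp2 had 7397, 7294, 14958 and 681 counts, even in ND and with the HFD libraries on either side. None was called, and the fitted log2 fold changes were -2.98 ± 2.57, -1.17 ± 2.44 and 0.86 ± 2.29. Those of Rplp0 and Rplp1 turned positive without ND replicate 2 (2.91 and 3.16), and that of Rplp2 turned negative without HFD replicate 1 (-3.67).

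The members on the X chromosome were Rps4x, Rpl10, Rpl36a and Rpl39. Rps4x, a small subunit protein, had 12684, 14544, 3072 and 7876 counts. Rpl10, a late-joining protein of the large subunit, had 19464, 16007, 1120 and 7822 counts. Both were even in ND, with HFD lower and the lowest value in HFD replicate 1. Rpl36a had 5410, 296, 722 and 46 counts, and Rpl39, a short protein of the exit tunnel, 5803, 3344, 2414 and 45. For these 2 the lowest library was HFD replicate 2. The 4 fitted log2 fold changes were between -2.05 and -1.08, and the smallest adjusted p was that of Rpl10 (edgeR adjusted p = 0.747).

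Low counts in HFD replicate 2 were frequent, with 28 members under 100 there. Described next are 4 that did not exceed its background limit, which is set per kilobase of exon. Others had as few counts and still passed the limit. Among them were Rpl14 with 10065, 32696, 20955 and 26 counts and Rpl23a with 3862, 10399, 1156 and 24. Rps6, the target of the S6 kinases downstream of mTOR, had 6451, 9155, 1949 and 19 counts. Rpl18 had 24039, 11391, 4102 and 27 counts, and Rpl34 had 4114, 10533, 2716 and 27. Rpl24, a protein of the face between the subunits, had 276, 57, 1911 and 0 counts, and 0 counts allow a level of up to 0.524 CPM in that library. These 4 and Rpl29 were the members not above background in HFD replicate 2 but above it in the other 3 libraries. In HFD replicate 1 they held from 11 (Rpl29) to 4102 (Rpl18) counts.

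Ribosomal protein genes have many processed pseudogenes, and reads from near-identical copies can be shared. Of the 78 coding sequences, 74 had at least 1 pseudogene copy at 95% identity over 80% of the length, and 42 had at least 5, with a median of 5. Rpl21 had the most, 56, and Rps3, Rplp2 and Rpl8 had none. How reads that align to several places were counted is not given in the sources used here, so values of genes with many copies are uncertain. The 19 members without a pseudogene named after them had a median fitted log2 fold change of 0.63, 10 above and 9 below 0, and the 59 others -0.95, with 18 above and 41 below. With copies counted by sequence the medians were -1.02 for the 42 members with at least 5 copies and -0.46 for the other 36. The split by name thus turned the sign of the median and the split by sequence did not. The level of HFD replicate 2 was the lowest in both classes by name, with median CPM of 931, 594, 1219 and 118 without and 676, 655, 484 and 30.4 with a named pseudogene.

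Genes that work with the ribosome were read from the same fit, and 0 genes of these lists were called. Of 13 genes on the elongation and termination list, not all of them factors themselves, 6 were fitted higher and 7 lower in HFD. Their median log2 fold change was -0.40, with 0 at an unadjusted p under 0.05 in either direction. The smallest p belonged to Eef2k, a kinase gene, and Etf1, both fitted higher. Eef2k had 40, 48, 4689 and 24 counts, high in HFD replicate 1, and Etf1 had 15, 69, 40 and 3601, high in HFD replicate 2. Eef1a1, which brings the tRNA to the ribosome and whose message also carries a TOP tract, was not among those with the smallest p. It had 28745, 36862, 5730 and 362 counts, lower in both HFD libraries. Its log2 fold change was -2.68 ± 2.44 (edgeR adjusted p = 0.706). Eef2, which moves the ribosome along, had 77, 141, 14104 and 71 counts, high in HFD replicate 1 only.

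For ribosome assembly, 37 of 39 genes were tested, 19 fitted higher and 18 lower, with a median of 0.01, and 3 in each direction had an unadjusted p under 0.05. Nhp2, a protein of the box H/ACA particles that modify rRNA, had 17046, 26764, 9 and 20 counts (log2 fold change -10.34 ± 2.64, edgeR adjusted p = 0.406). Brix1, needed for the large subunit, had 593, 7554, 21 and 87 counts. Nop2, an rRNA methyltransferase, had 25, 17, 2401 and 34 counts. Among 10 genes of the TOP message-binding and mTOR list, 6 were fitted higher and 4 lower, with 0 higher and 1 lower at an unadjusted p under 0.05. That gene was Larp4, with 8748, 98, 24 and 30 counts, and Larp1 had 123, 63, 2300 and 39.

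The genes for the mitochondrial ribosome offer the nearest family. Their 78 genes summed to 19978, 25350, 9847 and 6966 CPM, lower in both HFD libraries than in both ND libraries, a log2 difference of -1.44 (exact permutation p = 0.33, the smallest possible). Of 69 tested, 23 were fitted higher and 46 lower, with a median log2 fold change of -0.99, and 12 were lower and 0 higher at an unadjusted p under 0.05, beside 6.41% and 4.82% of all genes tested. Above background in all 4 libraries were 9 of 78, against 72 of 78 for the cytosolic family. The difference between the families in their response to diet was not tested.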

How the data were processed

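RNA of 2 ND and 2 HFD samples was measured. The authors trimmed reads with Trim Galore, aligned them with HISAT2 to mm10 and counted them with featureCounts, and the deposited values are raw counts per Ensembl gene. The annotation release, strand and multi-mapping settings are not given in the sources used here. Names and exon lengths came from GENCODE M21 (55141 of 55401 identifiers). Diets were compared in R 4.3.3 with edgeR 4.0.16 (quasi-likelihood, legacy FALSE, robust FALSE, TMM factors 1.02, 0.940, 0.692 and 1.51, filterByExpr, Benjamini-Hochberg over all genes). Each standard error is the size of the fold change (log2) divided by the root of its F statistic. Alternatives were DESeq2 (here version 1.42.0, not the release used in the study), limma-voom (3.58.1), other scalings and filters, a replicate block and each library left out. Functions were tested on simulated data. The members and lists were chosen with earlier results of these data known. Named genes are the 4 highest per kilobase in each subunit, the 5 with the smallest p in each direction among those whose groups do not overlap, the most abundant in each library, those not above background in every library, the stalk and the X-linked genes. The 72 members above background in all libraries are given as counts and, but for 2 genes, in a plot. Values of a few genes are not reported here. Floors cover counting error only.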

Additional observations from a re-analysis of the deposited data

How the results depend on the processing

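The number of members called was 0 with edgeR under RLE factors, library size alone, either other filter (none, or 10 counts or more per sample), the legacy fit, no minimum fold and every library left out in turn, 0 with limma-voom, 4 at an unadjusted p under 0.05 and 8 with DESeq2. Only DESeq2 took single named genes past the threshold, namely Rpl12, Rpl13a, Rpl22, Rpl29, Rpl35, Rps10, Rps26 and Rps27a. The median log2 fold change of the members ran from -3.95 (without HFD replicate 1) to -0.25 with a library left out, and was 0.63 for the 19 members without a named pseudogene. The cause of these shifts was not tested. With a library left out, the log2 summed CPM difference ran from -1.50 to -0.20 and the large subunit share from -3.44 to -1.83 percentage points. The share difference was 1.15 per kilobase of exon. At a limit of 50 CPM, 41 members passed in HFD replicate 2, beside 72 over background. Whether replicate numbers pair the samples is not given in the labels. The replicate differences of both diets had a correlation of 0.01 over 19335 genes, which cannot decide it in libraries this far apart. With the replicate block 0 members were called, the median was -1.38, Rpl24 changed to -1.42 and Rplp2 to -0.86, and limma-voom gave Rplp2 -0.70. Direction also turned with a library left out, where the log2 fold change ranged from -10.41 to 4.75 for Rpl24 (0 counts in HFD replicate 2, so the size depends on the prior count), -6.11 to 1.01 for Rpl36a, -5.66 to 2.91 for Rplp0, -4.04 to 3.16 for Rplp1, -3.67 to 1.84 for Rplp2 and -7.40 to 2.04 for Rps15. Where a diet was left with 1 library, that library is assumed to vary like the other group. HFD replicate 2, the shallowest library, had the highest background limit (12.5 counts per kilobase), and 28 members had under 100 counts there. In HFD replicate 1, with a library total of 6456825 beside 5723605, 5 members did. Not all of the 28 were weak elsewhere, since Rpl18 had 24039, 11391, 4102 and 27 counts. Values of these members in HFD replicate 2 rest on few reads, and the cause of the low counts was not tested.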

Other observations

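Genes outside the family that resemble its members also stood far apart between replicates. Of 10 such genes 8 were tested, 1 fitted higher and 7 lower in HFD, with a median log2 fold change of -1.13, 0 called and 2 lower at an unadjusted p under 0.05. In the order ND replicate 1, ND replicate 2, HFD replicate 1, HFD replicate 2, the gene Rps4l had 15866, 96, 1 and 1 counts (edgeR adjusted p = 0.406). Rpl22l1, the paralog of Rpl22, had 49, 104, 3 and 22 counts (log2 fold change -2.60 ± 0.95, edgeR adjusted p = 0.406). Its counts were few in every library and its CPM lower in both HFD libraries than in both ND libraries. Rps27l, a copy-like relative of Rps27, had 18049, 77, 3 and 22706 counts. Rack1, a scaffold protein bound to the small subunit, had 24079, 26139, 85 and 33519 counts, low in HFD replicate 1 only. Fau, which encodes a small subunit protein fused to a ubiquitin-like one, had 5356, 225, 1036 and 27 counts.

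Pseudogenes named after ribosomal proteins, 300 in the annotation, summed to 714, 2659, 1201 and 527 CPM, and 14 of them were above background in all 4 libraries.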
